A study of Homo sapiens with 6 samples.

Results

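KCNJ4 encodes Kir2.3, a potassium channel subunit of the inward rectifier family, and it is 1 of the 16834 genes in the deposited table of ribosome-associated RNA. It was chosen by its own Flag-IP and HA-IP values, because it is an ion channel gene with a much higher level in the Flag-IPs, so its difference between the groups is given as a description with no test. It is set beside the 7 other KCNJ genes listed in the table, of 15 others that GENCODE 44 annotates on GRCh38, and the remaining KCNJ genes were not analysed here.

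The libraries come from HEK293-T Flp-In cells, a human embryonic kidney line that stably expresses ccTaggedRP from a CAG promoter after insertion of a single copy, and that was grown asynchronously under hygromycin B. Both groups share this line and construct. The construct encodes 2 tagged forms of the large-subunit protein RPL10a that are cut apart at an internal cleavage site, Flag-RPL10a-hCdt with the degron of CDT1 and HA-RPL10a-hGem with the degron of geminin, and the degrons were designed to leave the first mainly in G0/G1 and the second mainly in G2-M. Each of the 3 Flag-IPs and 3 HA-IPs is RNA recovered with an antibody to 1 tag from a non-denatured lysate, so the groups differ in the tag, the antibody and the predicted phase, and these cannot be told apart. Nothing in the labels says that the replicates are separate cultures, so the p-values measure only the spread between these libraries. In a bulk pulldown, fewer cells that hold a transcript and less transcript on the tagged ribosomes of each cell cannot be told apart either.

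Inward rectifiers are tetramers of subunits with a pair of membrane-spanning helices around a pore loop. They pass potassium more readily into the cell than out of it, because magnesium and polyamines from the cytoplasm plug the pore when the membrane is depolarised, and they need the membrane lipid PIP2 to open. Kir2 channels hold the resting potential near the potassium equilibrium potential, above all in heart muscle, skeletal muscle and neurons, whereas Kir3 channels are opened by G proteins and Kir6 channels sense ATP together with a sulfonylurea receptor.

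KCNJ4 (ENSG00000168135) lies on the minus strand at chr22:38426327-38455199 (GRCh38). GENCODE annotates 1 transcript with 2 exons. The first exon, of 220 bp, is 5′ UTR, and the second, of 1845 bp, holds the whole coding region of 1335 bp. The 3 printed sequences are the 250 bases immediately before the GENCODE canonical start of KCNJ4 and of 2 other genes of the Kir2 branch. Each runs 5′ to 3′ on its gene's own strand. They are shown because KCNJ4 stands apart from these paralogs in level in the Flag-IPs and in base composition. KCNJ4 is chr22:38455200-38455449 (minus strand), KCNJ2 is chr17:70169282-70169531 (plus) and KCNJ14 is chr19:48455324-48455573 (plus). Capitals mark matches to any of 3 motifs that were searched on both strands, and no matches overlapped in these windows. The first motif is the Sp1 box, spelled GGGCGG. The next is the TATA box of many tightly regulated genes, spelled TATAAA. The last is the E-box that muscle regulators such as MyoD favour, spelled CAGCTG.
KCNJ4: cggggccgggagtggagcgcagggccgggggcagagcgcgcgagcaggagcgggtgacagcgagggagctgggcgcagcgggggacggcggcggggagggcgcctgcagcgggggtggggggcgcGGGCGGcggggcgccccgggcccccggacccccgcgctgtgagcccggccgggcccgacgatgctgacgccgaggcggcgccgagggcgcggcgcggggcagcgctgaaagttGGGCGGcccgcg
KCNJ2: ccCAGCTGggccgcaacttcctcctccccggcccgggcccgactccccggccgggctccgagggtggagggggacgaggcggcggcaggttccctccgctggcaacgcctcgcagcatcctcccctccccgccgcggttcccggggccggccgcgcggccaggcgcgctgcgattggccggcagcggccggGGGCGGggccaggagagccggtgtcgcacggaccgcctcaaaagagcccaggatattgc
KCNJ14: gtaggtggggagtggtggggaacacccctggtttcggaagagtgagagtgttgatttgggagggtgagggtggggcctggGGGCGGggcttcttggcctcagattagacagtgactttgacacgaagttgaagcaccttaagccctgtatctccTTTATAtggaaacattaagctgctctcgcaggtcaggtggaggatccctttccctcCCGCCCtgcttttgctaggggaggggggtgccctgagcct

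The KCNJ4 window was 84.4% G and C and held 42 CpG dinucleotides. Over the same window of 16683 genes of the table, the median was 65.2% and 21 CpG, and 98.8% of windows had a lower GC content than that of KCNJ4. It held 2 GGGCGG matches and neither TATAAA nor CAGCTG. The KCNJ2 window was 77.6% G and C with 1 GGGCGG and 1 CAGCTG match. KCNJ14 stood at 57.2% with 2 GGGCGG matches and 1 TATAAA match. GGGCGG occurred in 65.7% of all windows, CAGCTG in 12.2% and TATAAA in 6.30%. RefSeq places the start of KCNJ4 at position 38444028, which is 11171 bp inside the GENCODE start, so the printed window depends on which annotation is used. The KCNJ4 transcript itself was 65.5% G and C, where the median over the canonical transcripts of the listed genes was 49.1% and 96.6% of them were lower.

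In the Flag-IPs, KCNJ4 had normalized counts of 1275, 1327 and 1003 in replicates 1, 2 and 3. These rest on 982, 1248 and 1087 reads, with exact Poisson 95% intervals of 1197 to 1358, 1254 to 1403 and 944 to 1064 normalized counts. In the HA-IPs, it had normalized counts of 58.6, 87.2 and 133, from 83, 88 and 121 reads and with intervals of 46.6 to 72.6, 69.9 to 107 and 111 to 159. The intervals cover counting error only. All 3 Flag-IPs were above all 3 HA-IPs. The mean was 1202 ± 174 (SD, n = 3) in the Flag-IPs and 93.0 ± 37.8 (SD, n = 3) in the HA-IPs, a ratio of 12.9, and it ran from 7.51 to 22.7 over the 9 possible pairs of a Flag-IP with an HA-IP.

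The spread was wider within the HA-IPs than within the Flag-IPs. The highest library was 2.28 times the lowest in the HA-IPs and 1.32 times the lowest in the Flag-IPs. HA-IP replicate 3 was the highest of its group and Flag-IP replicate 3 the lowest of its group. The interval of HA-IP replicate 3 did not meet those of HA-IP replicates 1 and 2. That of Flag-IP replicate 3 did not meet those of Flag-IP replicates 1 and 2. In each group, replicate 3 thus differed from the others by more than counting error. On the log2(normalized count + 1) scale, the difference of the HA-IPs from the Flag-IPs was -3.74 (SE 0.23), and it lay between -4.04 (without HA-IP replicate 3) and -3.45 (without HA-IP replicate 1) when 1 library at a time was left out. Of the 13141 genes whose mean reached 50 normalized counts, 45 had a lower log2 difference, and 12 of the 45 were members of the list of heart muscle cell markers described further on. With the trends of GC content and transcript length removed in each library, an alternative chosen after seeing the data, the difference was -3.77.

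**Figure D1:**
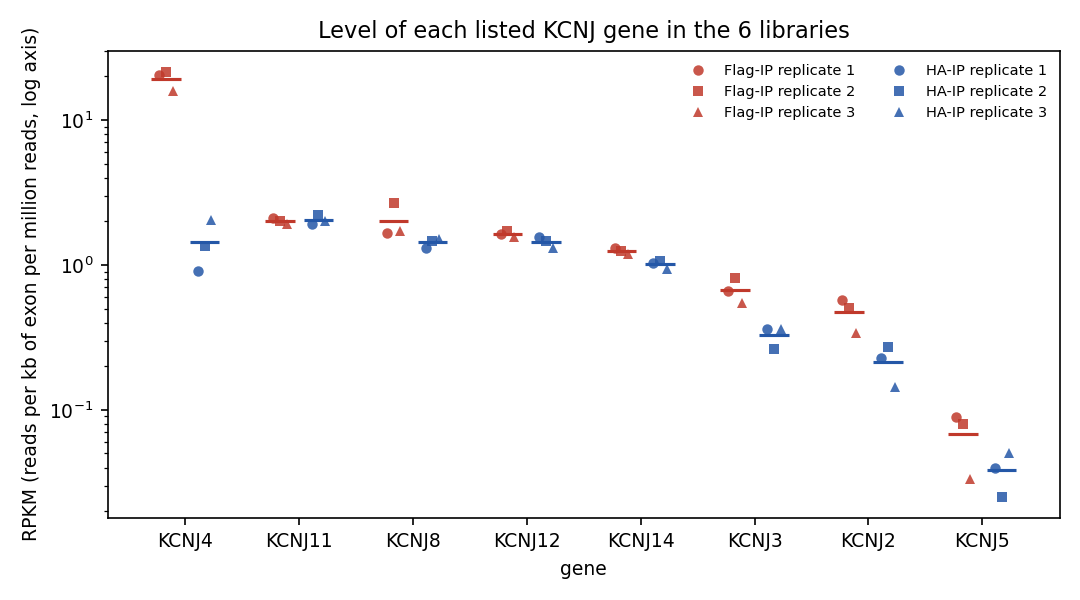
RPKM, the reads scaled by exon length and by library total (log axis), for the 8 listed KCNJ genes, in the 3 Flag-IPs (red) and the 3 HA-IPs (blue); symbols are libraries and bars are group means. KCNJ4 lies at 15.7 to 21.4 in the Flag-IPs, above all other KCNJ genes, and at 0.911 to 2.04 in the HA-IPs, among KCNJ11, KCNJ12, KCNJ8 and KCNJ14.

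Levels of different genes were compared as RPKM, the reads divided by the length of the exons and by the reads of the library. In the Flag-IPs, KCNJ4 was the highest KCNJ gene, with an RPKM of 20.5, 21.4 and 15.7, or 19.2 ± 3.05 (SD, n = 3). KCNJ11 and KCNJ8 came next, at 2.01 ± 0.085 and 2.01 ± 0.561 (SD, n = 3), and their libraries overlapped with each other but not with KCNJ4. KCNJ12 followed at 1.63, overlapping KCNJ8, then KCNJ14 at 1.25, KCNJ3 at 0.673, KCNJ2 at 0.471 and KCNJ5 at 0.068. Of these neighbours only KCNJ3 and KCNJ2 overlapped.

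In the HA-IPs, the order by mean RPKM was led by KCNJ11, at 2.03 ± 0.146 (SD, n = 3). KCNJ12 at 1.44, KCNJ4 at 1.43 ± 0.570 (SD, n = 3) and KCNJ8 at 1.43 followed, and KCNJ4 overlapped with both of its neighbours. The place of KCNJ4 changed with the library. It was above KCNJ11 in HA-IP replicate 3 (2.04 against 2.01) and below KCNJ14 in HA-IP replicate 1 (0.911 against 1.03). KCNJ14 at 1.01, KCNJ3 at 0.328, KCNJ2 at 0.214 and KCNJ5 at 0.038 kept the places they had in the Flag-IPs. KCNJ4 carried 54.1, 53.4 and 50.3% of the normalized counts of the 8 genes in the Flag-IPs against 6.12, 8.44 and 13.2% in the HA-IPs. The normalized counts of the other 7 genes summed to 1080, 1159 and 991 in the Flag-IPs against to 899, 946 and 878 in the HA-IPs.

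Of the 7 other KCNJ genes, 2 passed the limma test at an adjusted p of at most 0.05, both higher in the Flag-IPs, where 7.10% of all genes in the table passed in that direction and 12.9% in either. For 4 of the 7 the libraries of the groups did not overlap, against 32.2% of all genes. Their median log2 difference was -0.40, against -0.0049 over all genes. Of the 7, 6 had a log2 difference below 0, against 51.0% of all genes.

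In the Kir2 branch, KCNJ2 encodes Kir2.1, the main subunit of the cardiac resting potassium current. Its normalized counts were 96.1, 84.0 and 58.1 in the Flag-IPs against 39.5, 47.5 and 25.4 in the HA-IPs, with no overlap. The log2 difference was -1.08 (SE 0.28, limma adjusted p = 0.0271). The call was lost without Flag-IP replicate 1 or 2 or without HA-IP replicate 1 or 3, with adjusted p from 0.0557 to 0.114. KCNJ12 encodes Kir2.2 and had 266, 281 and 260.1 normalized counts in the Flag-IPs against 263, 252 and 225 in the HA-IPs. These overlapped, with a log2 difference of -0.13 (SE 0.11, limma adjusted p = 0.487). KCNJ14, which encodes Kir2.4, had 168, 161 and 158 in the Flag-IPs against 138, 144 and 127 in the HA-IPs, and its log2 difference of -0.25 (SE 0.13) did not pass (limma adjusted p = 0.229) although the groups did not overlap. The reads of KCNJ12, KCNJ14, KCNJ8 and KCNJ2 are uncertain, since 7.21% of the stretches of 100 bases in KCNJ12 also occur in its near copy KCNJ18 and 24.2% of those in KCNJ14 also occur in adjoining annotated genes, among them GRWD1. The same holds for 6.87% of those in KCNJ8, shared with ENSG00000255644, and for 1.59% of those in KCNJ2, shared with KCNJ2-AS1.

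Among the G protein-gated Kir3 subunits, KCNJ3 (Kir3.1, or GIRK1) had 97.4, 120.2 and 82.1 normalized counts in the Flag-IPs against 55.0, 40.6 and 56.2 in the HA-IPs. All Flag-IPs were higher, with a log2 difference of -0.96 (SE 0.21, limma adjusted p = 0.0139), and the call was lost without Flag-IP replicate 2 (0.0859) or HA-IP replicate 2 (0.0648). Its partner in the atrial channel, KCNJ5 (Kir3.4), was read 5 to 14 times in each library, and its log2 difference of -0.63 (SE 0.49, limma adjusted p = 0.458) was not distinguishable from 0 at this depth. Among the ATP-sensitive Kir6 subunits, KCNJ8 (Kir6.1) had 125, 199.9 and 133 normalized counts in the Flag-IPs against 102, 116 and 120.2 in the HA-IPs. Its log2 difference was -0.40 (SE 0.18, limma adjusted p = 0.187). KCNJ11 (Kir6.2) had 312, 299 and 293 in the Flag-IPs against 294, 342 and 314 in the HA-IPs, with a log2 difference of 0.07 (SE 0.10, limma adjusted p = 0.71) and the groups overlapping.

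Proteins that anchor and traffic Kir2 channels include the PDZ scaffolds of the DLG and LIN7 families, the dystrophin complex, caveolins, filamin A and the AP-1 adaptor. All 25 genes on this list were in the table. Of these, 4 passed as higher in the Flag-IPs, a share of 16% against 7.10% of all genes. Another 2 passed as higher in the HA-IPs, where 5.79% of all genes passed, and the list's median log2 difference was -0.05. The largest difference was that of CAV3, the muscle caveolin, with 108, 90.4 and 60.9 normalized counts in the Flag-IPs against 1.41, 1.98 and 6.62 in the HA-IPs, a log2 difference of -4.49 (SE 0.46, limma adjusted p = 0.000292). The HA-IP values rest on 2, 2 and 6 reads, and the difference was -4.93 with a pseudocount of 0.1 and -2.84 with one of 10. TAX1BP3 (TIP-1), a single-PDZ protein known to bind the Kir2.3 tail, had 283, 299.9 and 197 in the Flag-IPs against 98.8, 119.8 and 124.6 in the HA-IPs, a log2 difference of -1.16 (SE 0.17, limma adjusted p = 0.00201). CAV1, the caveolin of most other cells, was higher in the Flag-IPs by a log2 difference of -0.69, and DMD, which encodes dystrophin, by -0.39. CASK, a scaffold kinase (0.17), and AP1G1, an AP-1 subunit (0.15), were slightly higher in the HA-IPs. The CAV1 call was lost without HA-IP replicate 1 (limma adjusted p = 0.0572), and those of CASK and AP1G1 held with Flag-IP replicate 3 left out and were lost with any of the other libraries left out (0.0565 to 0.211). Both were also lost with equal totals per library, quantile normalization, the GC and length trends removed, or the replicate block. FLNA, with the highest mean count of the list, had a log2 difference of 0.17 (limma adjusted p = 0.105). The 4 DLG genes lay between -0.30 and 0.01 and none passed.

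Polyamines plug the pore of Kir channels, and PIP2 is needed for these channels to open. Of 11 genes for PIP2 synthesis, 3 passed, all higher in the HA-IPs: the kinases PIP5K1A (log2 difference 0.24), PI4KB (0.19) and PI4KA (0.18), where 5.79% of all genes passed in that direction and 12.9% in either. PI4KA had the highest mean count of the list, not scaled by length. The list's median was 0.05. The calls of PI4KA and PI4KB were lost with any library but Flag-IP replicate 3 left out (limma adjusted p from 0.0516 to 0.149), and that of PIP5K1A without Flag-IP replicate 2 or without HA-IP replicate 1 or 3 (0.0586 to 0.0827). Of 12 genes of polyamine synthesis and its control, OAZ2 (-0.57) and OAZ1 (-0.43), the antizymes that inhibit ornithine decarboxylase, passed as higher in the Flag-IPs, a share of 16.7% against 7.10% of all genes. ODC1, which encodes that decarboxylase and had the highest mean count of the list, had 10339, 10130.5 and 10068 normalized counts in the Flag-IPs against 10659, 9762 and 10130.4 in the HA-IPs, and these overlapped. The list's median was -0.13. Of 13 accessory subunits and modulators of Kir channels, 2 passed, both higher in the Flag-IPs, a share of 15.4% against 7.10% of all genes, with a median of -0.14. ABCC9, the sulfonylurea receptor SUR2 that pairs with Kir6 in muscle, was read 29, 25 and 21 times in the Flag-IPs and 0, 0 and 3 times in the HA-IPs, too few for a fold. GNB2, a G protein beta subunit, had a log2 difference of -0.21 (SE 0.06) whose call was lost with any library but Flag-IP replicate 3 left out (limma adjusted p from 0.0764 to 0.139), and GNB1, with the highest mean count of the list, had -0.14 (limma adjusted p = 0.116).

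**Figure D2:**
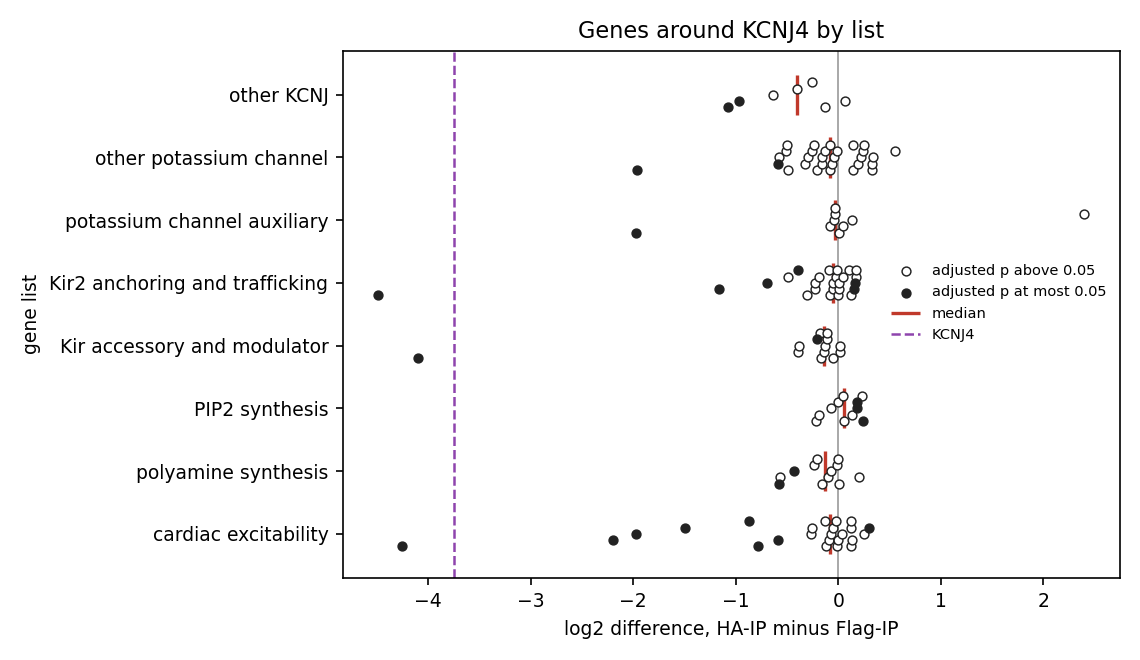
Log2 difference of the HA-IPs from the Flag-IPs for every listed gene of 8 lists; filled points passed the limma test, open points did not, red bars are list medians and the dashed line is KCNJ4 at -3.74. List medians lie between -0.40 and 0.05. CAV3, ABCC9 and SLC8A1 are plotted below the KCNJ4 line, but CAV3 (-2.84) and ABCC9 (-1.76) have few HA-IP reads and lie above KCNJ4 (-3.61) with a pseudocount of 10.

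Potassium channels of other families, voltage-gated, calcium-activated and background, were also counted. Of 63 such genes, 29 were in the table and 2 passed, both higher in the Flag-IPs, a share of 6.90% against 7.10% of all genes, with a median of -0.08. KCNN2, a calcium-activated channel, was read at 33.8, 33.0 and 16.6 normalized counts in the Flag-IPs against 6.35, 2.97 and 11.0 in the HA-IPs. Its log2 difference was -1.96 (SE 0.49), and the call was lost without Flag-IP replicate 1 or 2 or without HA-IP replicate 1 or 2 (limma adjusted p from 0.0514 to 0.116). KCNH2, the hERG channel, had a log2 difference of -0.59 (SE 0.16), a call that was lost with any library but Flag-IP replicate 3 left out (0.0597 to 0.133), and KCNQ5, with the highest mean count of the list, had -0.04. Of 9 listed auxiliary subunits, KCNIP2, a subunit of the cardiac transient outward channel, passed as higher in the Flag-IPs, a share of 11.1% against 7.10% of all genes. KCNIP2 had 209, 163 and 133 normalized counts in the Flag-IPs against 33.9, 38.6 and 54.0 in the HA-IPs, a log2 difference of -1.97 (SE 0.23, limma adjusted p = 0.000521). KCNAB2, with the highest mean count of the list, had -0.08. LRRC26, singled out after its values were seen, had the list's only large positive log2 difference, 2.40 (SE 0.84, limma adjusted p = 0.0874), and was not called.

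Kir2 channels act in heart muscle beside other channels, pumps and exchangers. Of 24 listed genes of cardiac excitability, 8 passed, 7 of them higher in the Flag-IPs, a share of 29.2% against 7.10% of all genes, and the list's median was -0.08. The 7 included SLC8A1, the sodium-calcium exchanger, ATP1B1, a beta subunit of the sodium pump, RYR2, the calcium release channel, and KCNIP2 and KCNH2. SLC8A1 had 421, 499.8 and 327 normalized counts in the Flag-IPs against 19.8, 10.9 and 39.7 in the HA-IPs, a log2 difference of -4.25 (SE 0.35, limma adjusted p = 9.55e-05). KCNIP2 stood at -1.97, ATP1B1 at -1.49 and RYR2 at -0.87. The 16 genes that did not pass lay between -0.26 and 0.25.

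Genes near KCNJ4 on chromosome 22 did not share its difference in size. Of 25 annotated genes within 250 kb, 13 were in the table and 1 passed, higher in the Flag-IPs, a share of 7.69% against 7.10% of all genes. This was KDELR3, which encodes a receptor for the retrieval of endoplasmic reticulum proteins and is the nearest listed gene at higher coordinates, 12.9 kb away. It had 235, 223 and 235 normalized counts in the Flag-IPs against 179.9, 164 and 151 in the HA-IPs, with a log2 difference of -0.49 (SE 0.12, limma adjusted p = 0.0206). The call was lost without Flag-IP replicate 2 or without HA-IP replicate 2 or 3. TPTEP2, a pseudogene 42.2 kb away and the nearest listed gene on the other side, had a log2 difference of -0.22 (SE 0.20, limma adjusted p = 0.547). DDX17, an RNA helicase gene and the one with the highest mean count of the region, had 0.11, and the 12 genes that did not pass lay between -0.60 and 0.12.

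**Figure D3:**
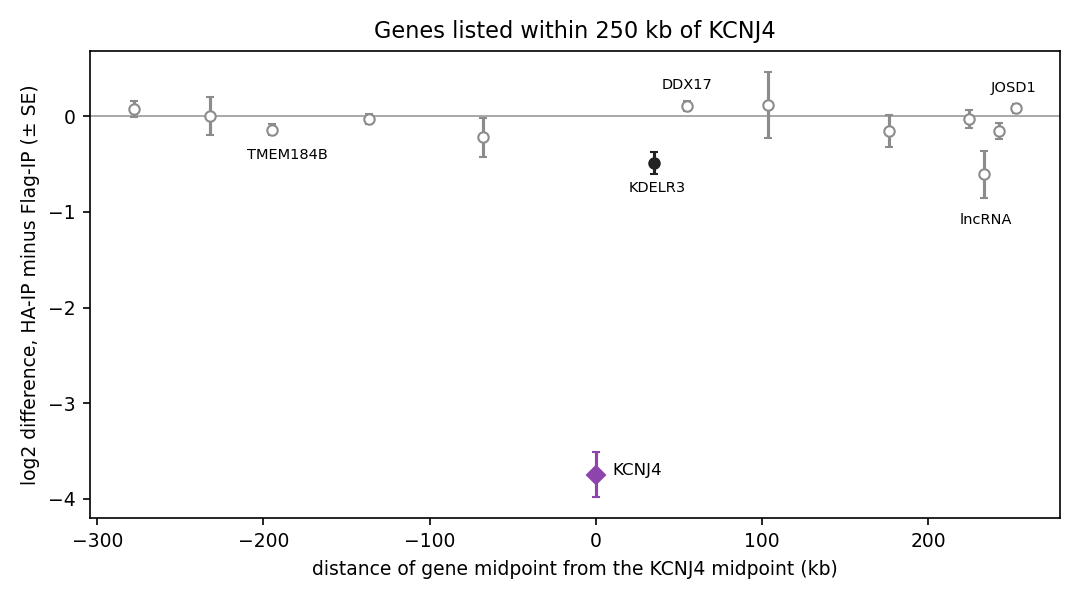
Log2 difference of the HA-IPs from the Flag-IPs (± SE) for the 13 listed genes within 250 kb of KCNJ4 (diamond), against the distance between gene midpoints in kb; the filled point, KDELR3, passed the limma test and gene names are given where the groups did not overlap. KCNJ4 lies at -3.74 and all of its neighbours lie at -0.60 or above.

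In GENCODE, 2 annotated genes overlap KCNJ4, both long noncoding RNA genes on the opposite strand. ENSG00000228620 covers chr22:38424288-38427336 and so overlaps the second exon of KCNJ4, and ENSG00000286440 lies in its intron. Neither was in the table. Of the 1966 stretches of 100 bases in the KCNJ4 transcript, 162 (8.24%) occurred in another annotated transcript, in each case ENSG00000228620, and none in another KCNJ gene. Whether the reads were counted by strand is not given in the sources used here, so reads of KCNJ4 and this antisense gene cannot be told apart over those stretches.

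The genes whose pattern over the 6 libraries was closest to that of KCNJ4 were found from log2 profiles, each centred on its own mean, by the root mean square difference over the 6 libraries. Among 12115 protein-coding genes with a symbol whose mean reached 50 normalized counts, the 8 closest included IGFBP7 (0.16), IGF2 (0.17), TRIM54 (0.26) and TINAGL1 (0.28), the 4 closest of all, and ESRRG (0.41), FRZB (0.43) and MYOT (0.44), and the next gene was at 0.444. IGFBP7, a secreted protein that binds insulin-like growth factors, had 1280.5, 1125 and 802 normalized counts in the Flag-IPs against 60.7, 94.1 and 139 in the HA-IPs. It was highest in Flag-IP replicate 1, and KCNJ4 in Flag-IP replicate 2. IGF2, an insulin-like growth factor, had 152, 174 and 143 in the Flag-IPs against 8.47, 8.91 and 18.7 in the HA-IPs. TRIM54 and MYOT encode sarcomere-associated proteins, ESRRG a nuclear receptor, FRZB a secreted Wnt antagonist and TINAGL1 a matrix protein. Pearson's r with KCNJ4 was at least 0.95 for 284 of the candidates, a figure that the group difference sets for any gene much higher in the Flag-IPs. KCNJ3 and KCNJ2 were the closest KCNJ genes, at ranks 129 and 134 with root mean square differences of 1.44 and 1.45. The root mean square difference is likewise set largely by the group difference that chose KCNJ4, so all these ranks are a description only.

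**Figure D4:**
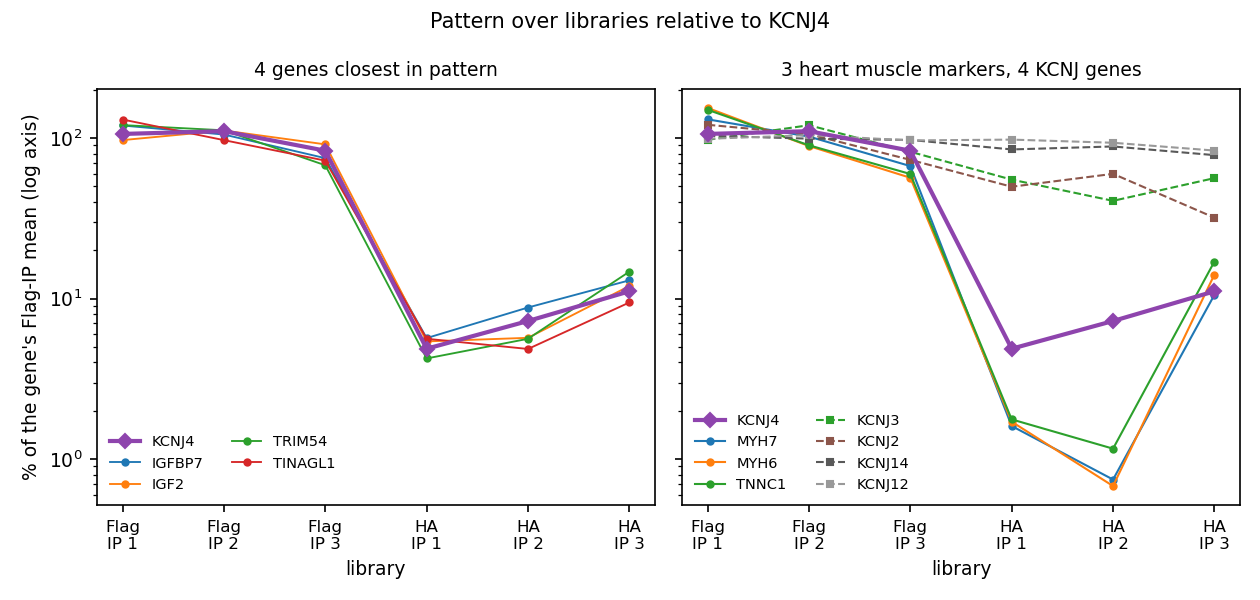
Normalized count in each library as a percentage of the gene's Flag-IP mean (log axis), for KCNJ4 (diamonds) with the 4 genes closest in pattern (left) and with 3 heart muscle markers and 4 other KCNJ genes (right); the lines join libraries for the eye only. In the HA-IPs KCNJ4 lies at 4.87 to 11.1%, the 3 markers are lower in HA-IP replicates 1 and 2, and the 4 KCNJ genes are all higher.

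Markers of heart muscle cells moved with KCNJ4, and their part in its difference was not tested. Of 24 markers on the list, 20 were in the table and all 20 passed as higher in the Flag-IPs, against 7.10% of all genes. Every gene in the table had at least 10 reads in 3 libraries. Markers such as CASQ2 (1, 1 and 3 HA-IP reads) and CSRP3 (0, 0 and 21) met this only with their Flag-IP reads. The share of markers that passed is therefore in part set by that filter and is a description only. The log2 differences of the 20 markers ran from -5.62 (DES) to -0.87 (RYR2), with a median of -4.14. Their normalized counts summed to 153537, 109201 and 71530 in the Flag-IPs against to 3120, 2109 and 14998 in the HA-IPs. MYH7, the slow myosin heavy chain, had the highest mean count, with 83895, 65504 and 42902 in the Flag-IPs against 1031, 478 and 6766 in the HA-IPs. MYH6, the other cardiac myosin heavy chain, had a log2 difference of -5.17 and TNNC1, cardiac troponin C, of -4.82. CSRP3 was at 0 in HA-IP replicates 1 and 2. As a percentage of the Flag-IP mean, the summed markers stood at 2.80, 1.89 and 13.5 in the 3 HA-IPs and KCNJ4 at 4.87, 7.25 and 11.1. Both were highest in HA-IP replicate 3. The sum, carried mostly by MYH7 and MYH6, was lowest in HA-IP replicate 2 and highest in Flag-IP replicate 1, where KCNJ4 was lowest in HA-IP replicate 1 and highest in Flag-IP replicate 2. Single markers differed in this, and some had too few reads to order HA-IP replicates 1 and 2. MB was read 6 and 7 times there and CASQ2 1 and 1 times, both singled out after their values were seen.

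Markers of neurons, another cell type rich in Kir2 channels, summed to 29633 to 32158 normalized counts over the 6 libraries, 30389 to 32158 in the Flag-IPs and 29633 to 30776 in the HA-IPs. Of the 15 in the table, CAMK2A passed as higher in the Flag-IPs, with a log2 difference of -3.95. This is a share of 6.67% against 7.10% of all genes. NEFL, a neurofilament gene that carried most of the sum, had -0.02, MAP2 had 0.14 and SYP had -0.04. None of the 15 was at 0 in any library. Of 8 listed markers of kidney epithelium, the tissue the line is labelled with, EPCAM (0.34) and CDH1 (0.29) passed as higher in the HA-IPs and PAX8 (-3.57) and PAX2 (-0.79) as higher in the Flag-IPs. Of all genes, 5.79% passed as higher in the HA-IPs and 7.10% as higher in the Flag-IPs. The 8 markers summed to 20809 to 21671 in the Flag-IPs and 23733 to 24142 in the HA-IPs, and the keratin genes KRT8 and KRT19 stood at 9904 to 11240 and 3931 to 4923 over the 6 libraries. PAX8 was read 34, 35 and 27 times in the Flag-IPs and 0, 4 and 4 times in the HA-IPs. The size of its log2 difference is therefore uncertain.

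On listed genes, the Flag-IPs held 23174532, 28223693 and 33429519 reads, and the HA-IPs 44134833, 31807471 and 28737728. HA-IP replicate 1, with the lowest KCNJ4 value, was the deepest library. Over all genes, 2171 passed the test, 975 higher in the HA-IPs and 1196 higher in the Flag-IPs.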

How the data were processed

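RNA from 3 Flag-IPs and 3 HA-IPs was selected for poly(A), made into libraries and read as pairs of 150 bp. Per the submitters' processing notes and the paper's methods, the authors used Trimmomatic 0.36 for trimming and STAR 2.5.2b for mapping to GRCh38, counted them per gene with featureCounts of Subread 1.5.2 and left out genes with few reads. The deposited table holds a normalized signal per library, a read count scaled by the authors with 1 size factor for each library. Its log2 fold changes and adjusted p-values are the authors' own DESeq2 comparison, and these deposited columns were not used. Every value was a whole multiple of 1 read in its library (tolerance 0.01 read), so reads were recovered.

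All 16834 genes entered limma 3.58.1 (R 4.3.3) on log2(normalized count + 1), letting the variance follow the mean expression, two-sided, with Benjamini-Hochberg adjustment over all genes and a threshold of 0.05. Fold changes on this scale understate low genes. With 3 libraries a group, the smallest exact permutation p would be 0.1. Alternatives were pseudocounts of 0.1 and 10, a mean of at least 50, quantile or equal-total scaling, edgeR 4.0.16 and DESeq2 1.42.0 on recovered reads, a constant prior variance in limma, a block for the replicate number, the omission of each library in turn, and, chosen after seeing the data, removal of GC and length trends (splines of 5 degrees of freedom, MASS 7.3-60.0.1). On simulated data with 200 changed genes among 16834, limma recovered 188 with 15 false calls, edgeR 189 with 17 and DESeq2 191 with 31. The changed genes all had a mean of at least 50 and folds larger than the slight differences of genes such as CASK and AP1G1. The recovery of such slight differences was not tested. Annotation was GENCODE 44, which holds 16683 (99.1%) of the identifiers, and sequences were read from the GRCh38 genome.

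KCNJ4, the lists and the rules were chosen with earlier results of these data known. Named genes are all listed KCNJ genes; from each list the called members, up to 4 in each direction by size, and the one with the highest mean count, not scaled by length; the nearest flanking gene on each side and those called; the 8 closest in pattern; and the 3 with the highest mean count of each marker list. Any other gene was singled out with its values in view. Some genes and 1 sequence that these rules would name are not reported here.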

Additional observations from a re-analysis of the deposited data

How the results depend on the processing

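The KCNJ4 difference was -3.80 to -3.61 under the alternatives that kept all libraries and -4.04 to -3.45 when 1 library was left out, and KCNJ11, KCNJ12, KCNJ14, KCNJ8 and KCNJ5 passed under none. The number of genes called was 2171 in the report, 188 without the trend of the variance and 620 to 3059 with 1 library left out: 780, 900 and 1216 when HA-IP replicate 1, 2 or 3 was omitted, and the low of 620 when Flag-IP replicate 2 was. Equal totals per library called 2047 genes, with 23.0% in the HA-IP direction against 44.9% in the report. Over 13141 genes, the deviations of same-numbered libraries from their group means correlated at -0.16, 0.031 and -0.31. Those of differently numbered libraries correlated at -0.24 to 0.30. With 3 libraries a group, these values cannot show whether the replicate numbers pair the libraries. Fewer genes, 1662, were called with the replicate block, which also leaves fewer degrees of freedom.

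Without the trend, 0 other KCNJ, flanking, PIP2 synthesis, Kir accessory, polyamine synthesis and other potassium channel genes passed, with 1 of Kir2 anchoring and 2 of cardiac excitability, where 3883 genes of the table still had an unadjusted p under 0.05. A minimum mean of 50 left 1 Kir accessory and 1 other potassium channel gene. A pseudocount of 10 gave 2 auxiliary genes. Quantile normalization left 1 other KCNJ gene, KCNJ3, 0 flanking genes and 1 other potassium channel gene. With the replicate block 1 each of PIP2 synthesis, Kir accessory and other potassium channel genes passed. Equal totals gave 1 PIP2 synthesis and 4 Kir accessory genes. With 1 library left out, the counts were 0 to 2 for other KCNJ, 0 to 1 for flanking, 3 to 9 for Kir2 anchoring, 0 to 3 for PIP2 synthesis, 1 to 3 for Kir accessory, 2 to 4 for polyamine synthesis, 0 to 2 for other potassium channel, 1 to 2 for auxiliary and 5 to 9 for cardiac excitability genes. Of the 8 genes closest in pattern, 2 were kept when ranked by Pearson's r, 3 with a pseudocount of 10 and 5 to 8 with 1 library left out. Kir2 anchoring genes numbered 6 in the report, 4 with equal totals, quantile normalization or the replicate block, and 5 with the GC and length trends removed. The causes were not tested. KCNJ5, ABCC9, CAV3 and PAX8 rest on few reads, and ABCC9, CAV3 and PAX8 were listed only through their Flag-IP reads.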
